A study of Mus musculus with 2 samples.

Results

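Histone and DNA methylation regulators were followed in RNA from mouse embryonic fibroblasts (MEFs), cultured cells of embryonic connective tissue. Members were the genes whose symbols belong to a fixed set of families: lysine demethylases (Kdm), methyltransferases (Kmt, Setd, Ehmt, Suv39h, Nsd, Prdm, Prmt), the core of Polycomb complex PRC2, chromobox proteins (Cbx), DNA methyltransferases (Dnmt), TET enzymes, deacetylases (Hdac, Sirt) and acetyltransferases (Kat). The sex-linked Kdm5c, Kdm5d and Kdm6a were left out. This gave 102 of the 17260 genes in the table. The set is wider than methylation: 69 members write, build or erase methyl marks or belong to families named for doing so, 8 are chromobox readers and 25 add or remove acetyl groups.

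There was 1 library of wild-type (WT) cells and 1 library of cells labelled Ahi1-/-. Both came from C57BL/6 embryos at day 13.5, were grown in DMEM with 10% serum and had no other treatment in the labels. Ahi1 encodes a protein at the base of the primary cilium. Which part of the gene was targeted, how many embryos went into a culture and its passage are not stated in these sources. The libraries held 19067504 and 20820756 counts. Ahi1 itself had 410 and 370 counts (log2 ratio -0.16, counting interval -0.37 to 0.05 at 95%), so its level did not check the genotype labels. Directions rest on the column heads alone, read as control and experimental, so the text speaks of the library labelled Ahi1-/-. With 1 library per genotype there was no test. Every difference compares these libraries, and every interval covers counting error only.

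Methyl groups on DNA and on histone tails mark chromatin as open or closed. Writers add them, erasers remove them and readers such as the chromobox proteins bind them. In dividing cells DNMT1 copies DNA methylation to the new strand. SUV39H enzymes methylate lysine 9 of histone H3 for HP1 proteins to bind, and PRC2 methylates lysine 27 for Polycomb chromobox proteins to bind.

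Relative to WT, most of these regulators were somewhat lower in the library labelled Ahi1-/-, and few were far apart. Log2 ratios are those of scaled counts, the library labelled Ahi1-/- over WT. A gene was called higher or lower at a 2-fold difference when the higher library held 50 counts or more. Of 102 members, 98 had at least 10 counts over both libraries and 96 had at least 50 in the higher. Of those 96, 12 were called lower, which is 12.5% against 10.3% of all genes, so the share lower was near the background. Only 4 were called higher, or 4.17% against 16.0% of all genes, and 2 of these calls were lost when the median of each gene's chromosome was subtracted. The other 80 were within 2-fold (83.3%, against 73.6% of all genes). The same shares of all genes are the background for the counts of each class below, which hold few genes.

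A smaller share of the members than of all genes lay above 0. The median log2 ratio of the 98 measured members was -0.38, against -0.01 over the 14485 measured genes, and 73 of them (74.5%) were below 0 against 50.7% of all genes. Counting intervals lay wholly below 0 for 62 members (63.3%, against 38.2% of all genes) and wholly above 0 for 17 (17.3%, against 37.5%). Summed over the members, TPM, the authors' length-normalised level, was 4423 in WT and 3376 in the other library.

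**Figure D1:**
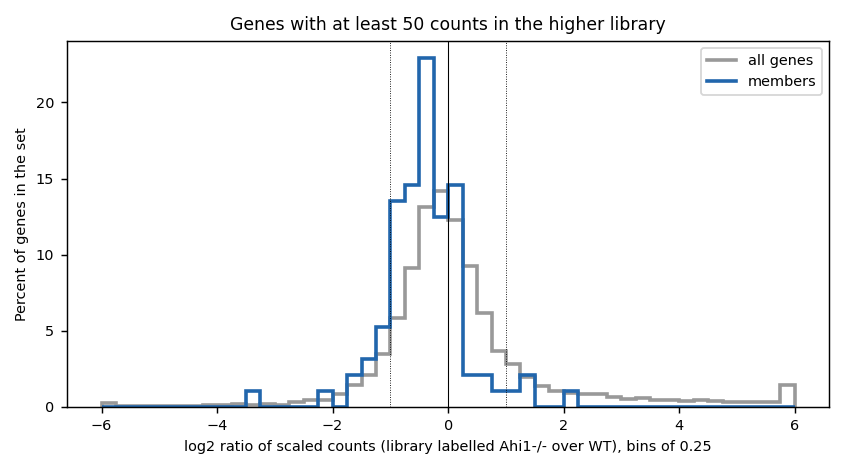
The horizontal axis is the log2 ratio of scaled counts (library labelled Ahi1-/- over WT) in bins of 0.25, and the vertical axis is the percent of genes in each bin, for 96 members (blue) and all 12075 genes that reached 50 counts in the higher library (grey). The outermost bins also hold the genes beyond them, dotted lines mark 2-fold, and the members' peak lies to the left of 0 with few members to the right of the upper dotted line.

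Proliferation markers were lower in the same library. Of 28 such genes, 21 were called lower (75%, against 10.3% of all genes) and 0 higher (against 16.0% of all genes). Their median log2 ratio was -1.31, and their summed level was 4783 TPM in WT and 2052 TPM in the other library. None was at 0 in either library. Several writers described next are known to be made mostly in dividing cells. The part of proliferation in their values was not tested. Fibroblast markers were present in both libraries (summed 11912 and 25678 TPM, with 9 of 14, or 64.3%, called higher and 1 lower). Red blood cell markers were 1428 and 64.9 TPM. Of the 11 in the table, 7 had the minimum count, and of these 6 were called lower (85.7%) and 0 higher. Hba-a2 and Gata1 were at 0 in the library labelled Ahi1-/-. Cartilage markers were 1013 and 119 TPM (6 of 8, or 75%, called lower, 0 higher, none at 0). The part of these marker lists in the members' values was not tested either. In such bulk RNA, fewer cells of a type and less RNA per cell cannot be told apart.

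**Figure D2:**
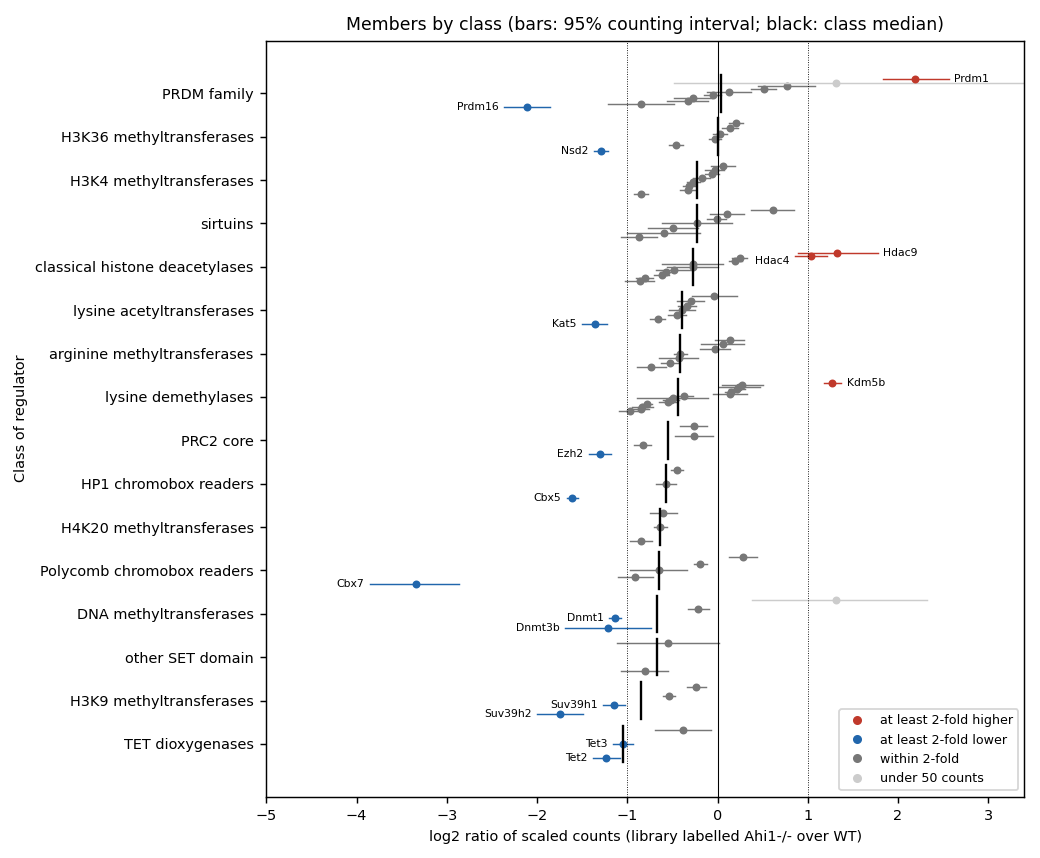
Each point is 1 of the 98 measured members, placed by its log2 ratio (horizontal axis, library labelled Ahi1-/- over WT) in its class (vertical axis, ordered by class median), with a bar for the 95% counting interval and a black line for the class median (the bar of Prdm6, which had 4 and 10 counts, runs past the right edge). Called members are named: 12 lower (blue) and 4 higher (red), with Cbx7 farthest to the left and Prdm1 farthest to the right.

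Among the DNA methyltransferases, the maintenance enzyme was lower and the main de novo enzyme was nearly level. Dnmt1 had 6423 counts in the WT library against 2946 in the other (130 and 61.2 TPM), a log2 ratio of -1.14 (counting interval -1.20 to -1.07). Dnmt3a, which sets new methylation, had 1368 and 1192 counts (log2 -0.21, -0.32 to -0.10). Dnmt3b, the other de novo enzyme, was scarce at 126 and 55 counts (log2 -1.21, -1.69 to -0.74). Dnmt3l, a cofactor without catalytic activity that is best known from germ cells, had 14 and 35 counts and stayed under the minimum for a call. Dnmt1 made up 86.9% of the family's TPM in WT and 77.6% in the other library, while the Dnmt3a share was 9.96% and 16.6%. The family total was 150 and 78.8 TPM.

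Of the TET enzymes, which oxidise methylcytosine and so start its removal, 2 of 3 were called lower, against 10.3% of all genes. Tet2 had 1253 and 538 counts (log2 -1.23, -1.38 to -1.09). Tet3 had 2090 and 1019 counts (log2 -1.05, -1.16 to -0.94), and was 2.07-fold lower, just past the 2-fold line. With upper-quartile scaling its log2 ratio was -0.996, and the call was lost. Tet1 was low at 202 and 156 counts (log2 -0.39). The family total was 36.7 TPM in WT and 17.8 TPM in the other library, and Tet3 was the largest part of it in both libraries, at 55.6% and 56.9%.

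For methylation of lysine 9 of histone H3, both SUV39H enzymes were called lower and neither EHMT enzyme was. Suv39h1 had 1761 and 802 counts (66.1 and 30.7 TPM, log2 -1.15, -1.27 to -1.03), and Suv39h2 had 565 and 170 (14.2 and 4.38 TPM, log2 -1.75, -2.00 to -1.50). Ehmt1 and Ehmt2 encode GLP and G9a, which place the mono- and dimethyl forms in genes. Ehmt1 had 1614 and 1384 counts (log2 -0.23) and Ehmt2 had 4873 and 3380 (log2 -0.54). All 4 were below 0, with a class median of -0.84.

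The HP1 readers of that mark all lay below 0, and Cbx5 was called lower. Cbx5 encodes HP1 alpha and had 8334 and 2754 counts, 3.05-fold lower (log2 -1.61, -1.67 to -1.55). Its level was 129 and 56.2 TPM, a log2 TPM ratio of only -1.20, a smaller difference than by counts. Cbx1 (HP1 beta) had 1617 and 1096 counts (log2 -0.57) and Cbx3 (HP1 gamma) had 4247 and 3130 (log2 -0.45). Cbx3 was the most abundant of the trio, at 266 and 201 TPM. The Cbx5 share of the family was 25.7% in WT and 16.9% in the other library.

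Within PRC2, the catalytic subunit of dividing cells was the member furthest apart. Ezh2 had 1821 and 744 counts (75.4 and 31.5 TPM, log2 -1.30, -1.43 to -1.18). Ezh1, its paralogue in resting cells, had 410 and 344 counts (log2 -0.27, -0.48 to -0.06). Suz12, a scaffold subunit, had 2600 and 1475 (log2 -0.83) and Eed, which binds the finished mark, 817 and 686 (log2 -0.27). Ezh2 made up 87.7% of the EZH pool in WT and 77.7% in the other library, and the pool was 85.9 and 40.6 TPM.

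Cbx7 was the member with the largest difference. This reader of the PRC2 mark is a subunit of Polycomb complex PRC1 and is known as a repressor of the Ink4a/Arf locus. It had 391 counts in the WT library against 39 in the other (13.9 and 1.42 TPM), 10.1-fold lower with a log2 ratio of -3.34 (-3.85 to -2.86). Other Polycomb chromobox genes lay nearer to 0. Cbx2 had 619 and 332 counts (log2 -0.91), Cbx8 had 215 and 138 (log2 -0.65) and Cbx6 had 3051 and 2698 (log2 -0.19).

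**Figure D3:**
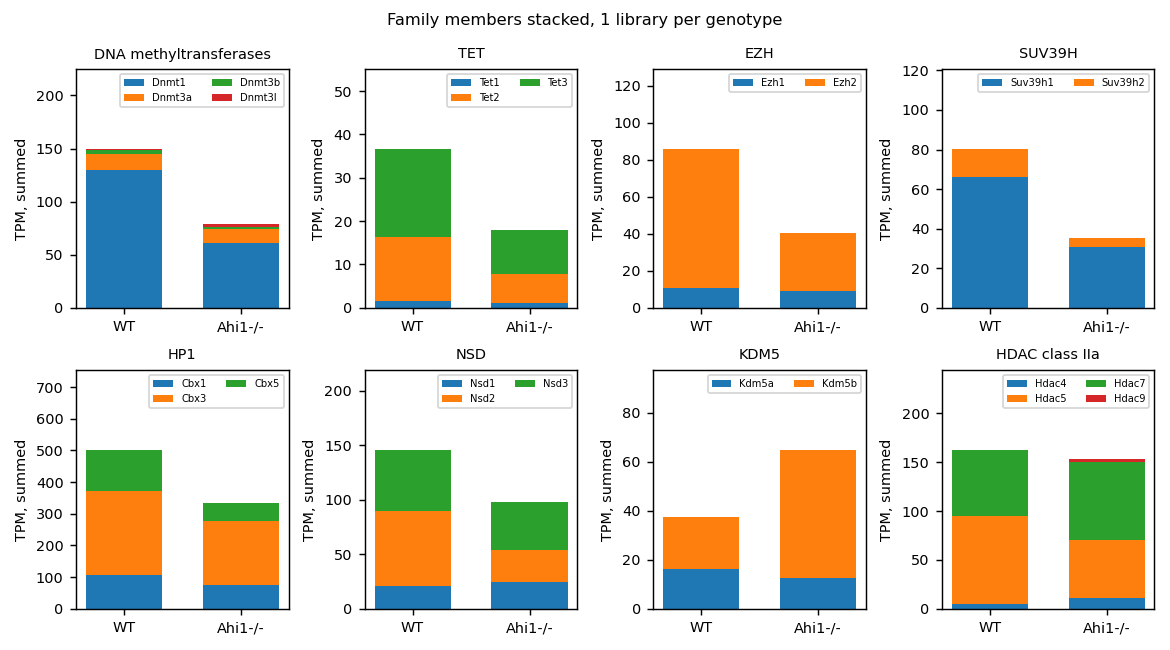
Stacked bars give the TPM (vertical axis, starting at 0) of each member of 8 families in the WT library and the library labelled Ahi1-/- (horizontal axis, 1 library each, no error). The DNA methyltransferase bar is 150 TPM in WT and 78.8 TPM in the other library, the EZH bar 85.9 and 40.6 TPM, and the KDM5 bar goes the other way, 37.4 and 64.9 TPM.

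The promoters of 6 of the lower members that write or read repressive methylation are shown, picked with their values known. Each is the 250 bases before the outermost RefSeq start, 5′ to 3′ on the strand of the gene, on build GRCm38.p6. Whether these cells use that start was not tested. The submitters' notes name another build. Capitals mark CCAAT boxes, the letters CCAAT or, on the other strand, ATTGG. Dnmt3b, also a lower writer of DNA methylation, is not shown, and its window held 0 such boxes.
Dnmt1, chr9:20959889-20960138, minus strand: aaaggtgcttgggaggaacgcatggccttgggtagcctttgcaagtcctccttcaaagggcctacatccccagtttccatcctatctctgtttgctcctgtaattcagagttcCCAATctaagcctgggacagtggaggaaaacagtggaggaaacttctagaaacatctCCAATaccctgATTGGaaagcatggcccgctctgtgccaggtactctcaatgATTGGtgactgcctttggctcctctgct
Ezh2, chr6:47595031-47595280, minus strand: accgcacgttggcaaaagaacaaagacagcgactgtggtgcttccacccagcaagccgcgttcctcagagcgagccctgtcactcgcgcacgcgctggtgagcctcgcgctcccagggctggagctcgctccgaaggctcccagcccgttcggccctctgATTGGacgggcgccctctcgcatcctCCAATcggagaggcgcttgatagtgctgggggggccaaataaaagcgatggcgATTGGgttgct
Suv39h1, chrX:8074761-8075010, minus strand: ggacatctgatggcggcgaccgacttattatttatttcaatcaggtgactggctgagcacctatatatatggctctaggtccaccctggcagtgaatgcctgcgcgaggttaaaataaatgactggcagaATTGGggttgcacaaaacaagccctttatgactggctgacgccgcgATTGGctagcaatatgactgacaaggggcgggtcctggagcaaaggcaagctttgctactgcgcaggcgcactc
Suv39h2, chr2:3474987-3475236, minus strand: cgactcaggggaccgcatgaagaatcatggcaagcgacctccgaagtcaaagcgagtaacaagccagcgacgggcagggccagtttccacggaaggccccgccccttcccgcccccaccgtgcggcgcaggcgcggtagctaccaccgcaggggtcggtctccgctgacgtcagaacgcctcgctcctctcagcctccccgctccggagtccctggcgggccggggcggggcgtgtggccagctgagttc
Cbx5, chr15:103239853-103240102, minus strand: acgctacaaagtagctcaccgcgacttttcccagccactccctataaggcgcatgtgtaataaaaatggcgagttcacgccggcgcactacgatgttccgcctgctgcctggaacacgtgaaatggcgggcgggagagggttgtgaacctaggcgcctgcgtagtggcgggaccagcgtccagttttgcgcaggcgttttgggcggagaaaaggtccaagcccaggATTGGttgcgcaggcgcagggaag
Cbx7, chr15:79932647-79932896, minus strand: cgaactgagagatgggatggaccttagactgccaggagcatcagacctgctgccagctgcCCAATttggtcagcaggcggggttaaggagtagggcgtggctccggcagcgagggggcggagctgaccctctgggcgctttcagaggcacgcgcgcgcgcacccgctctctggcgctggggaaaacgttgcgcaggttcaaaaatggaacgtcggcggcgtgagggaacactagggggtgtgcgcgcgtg

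The CCAAT box was present in 8 of the 11 lower members that had a RefSeq window, in 27 of 62 members within 2-fold (43.5%), in 2 of 4 higher members and in 34.5% of 27025 promoters of the same length. Among 9666 promoters of genes with at least 50 counts the share was 37.4%, and among 978 promoters of all lower genes 43.5%. Dnmt1 held 4 such boxes, Ezh2 held 3, Suv39h1 held 2, Cbx5 and Cbx7 held 1 each and Suv39h2 held 0. The letters of the cell cycle homology region (TTTGAA or TTCGAA, either strand) were in 4 of the 11, in 8 of 62 members within 2-fold (12.9%), in 12.2% of promoters of genes with at least 50 counts, in 15.8% of those of all lower genes and in 17.5% of all promoters. E2F letters (TTTCCCGC, TTTCGCGC, TTTGCCGC or TTTGGCGC, either strand) were in 0 of the 11 windows, in 5 of 62 members within 2-fold (8.06%), in 3.58% of promoters of genes with at least 50 counts, in 6.54% of those of all lower genes and in 1.92% of all promoters. Matches of different motifs shared a base in 0 of the 11 windows, and no match says only that these letters are not in this window. The windows of Ezh2 and Suv39h2 held 23 and 27 CpG dinucleotides and that of Dnmt1 held 2, against a median of 16 over promoters of genes with at least 50 counts and of 6 over all promoters. A gene can have other starts further in, so a window, that of Dnmt1 included, may not be the promoter active in these cells. RefSeq windows were matched for 81 of the 102 members. These counts are a description. The windows were chosen with the values known, and the CCAAT box was put in capitals after the counts of all 3 motifs had been seen, in place of the E2F letters that had been marked first.

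Of the 6 genes classed by family with the writers of methylation on lysine 36 of histone H3, 1 was called lower, Nsd2, and 5 were within 2-fold. Nsd2, an enzyme of the dimethyl form, had 4536 and 1864 counts (69.1 and 29.1 TPM, log2 -1.30, -1.37 to -1.22). Its paralogues were Nsd1, with 2414 and 2807 counts (log2 0.20), and Nsd3, with 3049 and 2231 (log2 -0.46). Nsd2 was the largest part of the NSD pool in WT (47.3%), and Nsd3 was the largest in the library labelled Ahi1-/- (44.8%). Setd2, the enzyme of the trimethyl form, had 2435 and 2504 counts (log2 0.03, -0.05 to 0.11). Setd5 had 4263 and 4217 counts, and Setd3, which methylates actin, had 1951 and 2163 (log2 0.14). The class median, near 0, changed sign with the scaling, as it was 0.01 with DESeq2 size factors and 0.05 with upper-quartile scaling.

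None of the 8 genes classed by family with the writers of lysine 4 methylation, a mark of active promoters and enhancers, was called. Of all genes with the minimum count, 73.6% were likewise within 2-fold. Kmt2a had 2702 and 2615 counts (log2 -0.06) and Setd1b had 1502 and 1481 (log2 -0.03). Kmt2b, Kmt2d, Kmt2e and Setd1a lay between log2 -0.33 and -0.18, and Kmt2c, at 877 and 922 counts, was the only member above 0 (log2 0.06, -0.08 to 0.19). Setd7, which also methylates proteins other than histones, was the lowest with 3656 and 2048 counts (log2 -0.85, -0.93 to -0.77). Kmt2e had the most TPM of the class, 56.7 and 47.0.

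The enzymes of lysine 20 of histone H4 all lay below 0 without reaching 2-fold. Kmt5a, which places the first methyl group and is known to follow the cell cycle, had 3644 and 2371 counts (144 and 95.8 TPM, log2 -0.63). Kmt5b had 1645 and 922 counts (log2 -0.85) and Kmt5c had 889 and 592 (log2 -0.60). Kmt5b lies on chromosome 19, where the median over all genes was -0.62, and relative to that median it was at -0.23. Of the remaining SET domain genes, Setd6 had 336 and 194 counts (log2 -0.81) and Setd4 had 68 and 47 (log2 -0.55).

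Among the lysine demethylases, Kdm5b was called higher and none was called lower. Kdm5b, which removes methyl groups from lysine 4 of H3, had 1167 and 2846 counts (21.3 and 52.2 TPM, log2 1.27, 1.17 to 1.37). Its paralogue Kdm5a had 1639 and 1274 counts (log2 -0.38). Kdm5b was 57.0% of their summed TPM in WT and 80.3% in the other library. Kdm5b lies on chromosome 1, where the median of all genes was 0.29. Relative to it the log2 ratio was 0.99, and the call was lost.

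The lowest demethylases stayed short of 2-fold. Kdm2b, which brings a variant PRC1 to CpG islands, had 1502 and 776 counts (log2 -0.97, -1.09 to -0.84). Scaled to total counts it was at -1.08 and passed 2-fold. Kdm3a, an eraser of lysine 9 methylation, had 2639 and 1477 (log2 -0.85), Kdm4b had 1644 and 931 (log2 -0.83) and Kdm2a had 6050 and 3549 (log2 -0.78). Kdm2a lies on chromosome 19 and was at -0.16 relative to the genes there. Kdm3b (log2 -0.55), Kdm1a (LSD1, log2 -0.51) and Kdm8 (log2 -0.49) followed. On the other side of 0 were Kdm4a (1919 and 2241 counts, log2 0.21), Kdm6b, an eraser of the PRC2 mark (2780 and 3115 counts, log2 0.15), Kdm1b (log2 0.28), Kdm7a (log2 0.24) and Kdm4c (log2 0.14). Kdm4d had 1 and 3 counts. Of the 14 measured demethylases, 8 were below 0, with a median of -0.44.

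The PRDM family, SET-related zinc finger proteins of which many act as transcription factors, held both a called lower and a called higher member. Prdm1 encodes BLIMP1, a repressor known from plasma cells, germ cell precursors and skin, and had 78 and 359 counts (1.60 and 7.60 TPM), 4.56-fold higher (log2 2.19, 1.83 to 2.56). Prdm16, known from brown fat and craniofacial development, had 705 and 165 counts (9.43 and 2.26 TPM), 4.31-fold lower (log2 -2.11, -2.36 to -1.86). Prdm4 had 750 and 1078 counts (log2 0.51) and Prdm11 had 133 and 228 (log2 0.76), both short of 2-fold. Prdm2 was the other abundant member, nearly level at 1790 and 1737 counts (log2 -0.06).

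Prdm9, the meiotic methyltransferase that places recombination sites, had 178 and 100 counts (4.87 and 2.66 TPM, log2 -0.84, -1.21 to -0.48). Markers of germ and pluripotent cells were near background beside it: 5 were in the table, with summed 2.95 and 3.19 TPM, 0 of them had 50 counts, and Dazl was at 0 in WT. Prdm10 and Prdm15 were at log2 -0.27 and -0.33. Prdm6 had 4 and 10 counts, Prdm8 had 1 and 4, and Prdm12 and Prdm14 had 0 and 1. The class median of 0.04 was -0.08 with scaling to total counts.

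Arginine methyltransferases stayed within 2-fold, as did 73.6% of all genes with the minimum count. Prmt1, the main enzyme of asymmetric dimethylation, had more TPM than any other of the 102 members in both libraries (313 and 244 TPM, 3737 and 2835 counts, log2 -0.41). Prmt5, the main enzyme of symmetric dimethylation, had 2000 and 1404 counts (log2 -0.52) and Prmt7 had 847 and 513 (log2 -0.74). Prmt9 was at log2 -0.43. Prmt2, Prmt3 and Prmt6 lay between log2 -0.03 and 0.14.

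Among the classical deacetylases, class I and class IIa each had members on both sides of 0. In class I, Hdac1 had 4468 and 3040 counts (248 and 173 TPM, log2 -0.57) and Hdac3, the enzyme of the NCoR complexes, had 2543 and 1464 (log2 -0.81). Hdac2 was above 0 at 2155 and 2580 counts (log2 0.25, 0.16 to 0.33), so its share of class I TPM was 22.5% in WT and 35.1% in the other library. Hdac8 was at log2 -0.48. In class IIa, whose members repress MEF2 and shuttle between nucleus and cytoplasm, Hdac4 had 394 and 815 counts (5.15 and 11.0 TPM, log2 1.04, 0.86 to 1.21). Hdac9 had 61 and 154 counts (0.66 and 2.68 TPM, log2 1.32, 0.89 to 1.78), and its log2 TPM ratio was 2.02. Hdac5 had 3173 and 2084 counts (log2 -0.62) and Hdac7 had 2585 and 2991 (log2 0.20). The class IIa total was thus nearly level at 163 and 153 TPM. The tubulin deacetylase Hdac6 had 891 and 495 counts (log2 -0.86), and Hdac10 and Hdac11 were at log2 -0.28 and -0.27. Hdac4 lies on chromosome 1 and was at 0.75 relative to the genes there, short of a call. Scaled to total counts it was at 0.92, also short of a call.

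Sirtuins, the NAD-dependent deacetylases, had 0 of 7 members called, where 73.6% of all genes with the minimum count were within 2-fold. Sirt1 was the lowest with 614 and 339 counts (log2 -0.87, -1.07 to -0.68) and Sirt7, a nucleolar enzyme, the highest with 244 and 376 (log2 0.61, 0.37 to 0.85). Sirt2, with the most TPM, had 1455 and 1461 counts (log2 -0.01). The mitochondrial Sirt3, Sirt4 and Sirt5 lay between log2 -0.60 and -0.23, and Sirt6 was at 0.11.

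All 7 acetyltransferases were below 0, 1 of them called. Kat5 encodes TIP60 and had 1518 and 596 counts (87.0 and 34.9 TPM, log2 -1.36, -1.50 to -1.22). Kat5 lies on chromosome 19 and was at -0.74 relative to the genes there, where the call was lost. Kat6a had 3183 and 2028 counts (log2 -0.66), Kat2a (GCN5) had 2033 and 1504 (log2 -0.45), and Kat6b, Kat7 and Kat2b lay between log2 -0.39 and -0.30. Kat8 was level at 273 and 269 counts (log2 -0.03).

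**Figure D4:**
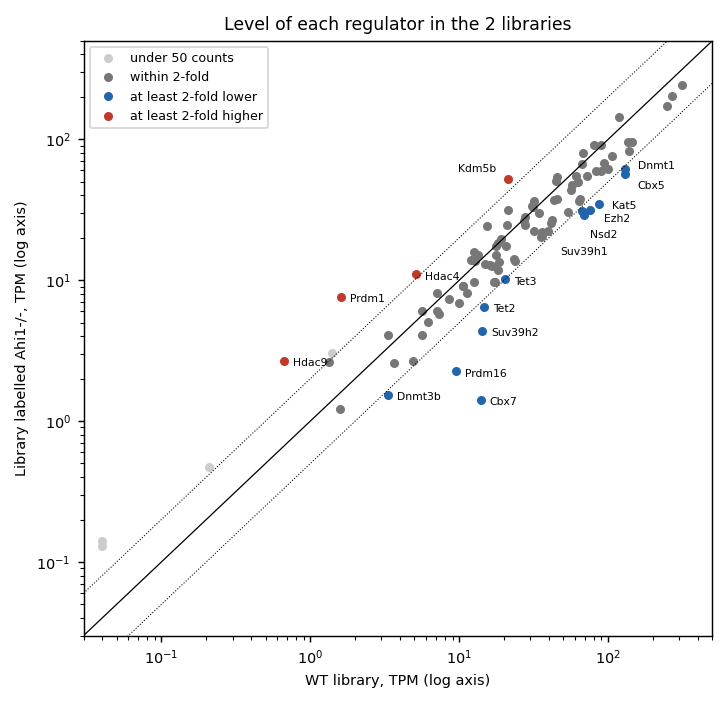
Each point is 1 member above 0 in both libraries, with its TPM in the WT library (horizontal log axis) and in the library labelled Ahi1-/- (vertical log axis). The solid line marks equal levels and the dotted lines 2-fold, called members are named, and Cbx7 lies at 13.9 TPM in WT and 1.42 TPM in the other library, while Prmt1, at 313 and 244 TPM, is the most abundant.

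The first 3 places in the order of levels were the same in both libraries. Ranked by TPM among the 102 members, Prmt1, Cbx3 and Hdac1 held ranks 1, 2 and 3 in both libraries. Dnmt1 went from rank 7 in WT to rank 15 in the library labelled Ahi1-/- and Cbx5 from rank 8 to 18, while Hdac2 went from rank 9 to 4. These ranks are a description, since counting error and length estimates leave close neighbours unordered.

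Partners of the members, which are not members themselves, were described in 7 lists. Of 18 cofactors and readers of DNA methylation, 5 were called lower and 1 higher, with a median log2 ratio of -0.55. Uhrf1, which guides DNMT1 to new DNA, had 5550 and 1572 counts (3.56-fold lower), the remodeller Hells had 4258 and 891 (4.82-fold lower), Ahcy, which clears the product of methyl transfer, had 3466 and 1274 (2.74-fold lower) and Gadd45a, a damage-response gene, had 168 and 434 (2.56-fold higher). Uhrf1 lies on chromosome 17 and Hells on chromosome 19, where all-gene medians were -0.30 and -0.62. Of 26 accessory Polycomb genes with the minimum count, 3 were lower and 0 higher (median -0.42): Pcgf6 (937 and 216 counts, 4.38-fold lower), Pcgf5 (1322 and 360, 3.71-fold lower), both on chromosome 19, and Mtf2 (1427 and 609, 2.36-fold lower). Of 13 subunits of the COMPASS complexes that carry the KMT2 and SETD1 enzymes, 2 were lower and 0 higher (median -0.64). These were Men1, on chromosome 19 (4376 and 1484 counts, 2.98-fold lower), and Psip1 (5290 and 2324, 2.30-fold lower). The shares called lower were 27.8% of the DNA methylation list, 11.5% of the Polycomb list and 15.4% of the COMPASS list, against 10.3% of all genes. The Polycomb share was thus near the background. The shares called higher were 5.56%, 0% and 0%, against 16.0% of all genes.

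The medians of the other partner lists were nearer to 0, and like the lists above they had genes on both sides of 0. With chromosome medians subtracted this order did not hold throughout. The other methyltransferases were then at -0.45 and the accessory Polycomb genes at -0.41. Of 25 subunits of deacetylase complexes, 2 were higher and 1 lower (median -0.20). Among them, Chd3 had 3633 and 9334 counts (2.55-fold higher) and Sap30 had 974 and 346 (2.84-fold lower). Of 13 other methyltransferase genes with the minimum count, Setdb1 was lower (2231 and 1082 counts, 2.08-fold) and Mecom, a PRDM relative, higher (173 and 518, 2.97-fold), with a median of -0.22. Of 23 other acetyltransferase genes, 1 was lower, the type B enzyme Hat1 (1861 and 689 counts, 2.73-fold), and 0 were higher (median -0.32). Of 9 JmjC genes outside the Kdm symbols, 1 was lower, Hif1an on chromosome 19 (2195 and 851 counts, 2.60-fold), and 0 were higher (median -0.22). In the order given, 4%, 7.69%, 4.35% and 11.1% of these lists were called lower, against 10.3% of all genes. The shares called higher were 8%, 7.69%, 0% and 0%, against 16.0% of all genes.

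Calls of a few members depended on the chromosome they lie on. All-gene medians were lowest on chromosomes 19 (-0.62), 8 (-0.36) and 17 (-0.30), which hold 12 of the 102 members, and Kat5 was the only called member there. With the median of each chromosome subtracted, the members' median was -0.39, as low within chromosomes as across the genome. Of the 12 lower calls 11 were kept, Kat5 was lost, and Cbx2 (-1.05) and Sirt1 (-1.08) passed 2-fold. Of the 4 higher calls, Prdm1 and Hdac9 were kept. Members without a call shifted too. The subtracted ratio lay outside the member's counting interval for 55 measured members and inside it for 43. Kat6a (-0.31), Prmt7 (-0.38) and Nsd3 (-0.11) on chromosome 8 and Ehmt2 (-0.24) and Kdm4b (-0.54) on chromosome 17 came nearer to 0. Prmt1 on chromosome 7 went the other way (-0.65).

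**Figure D5:**
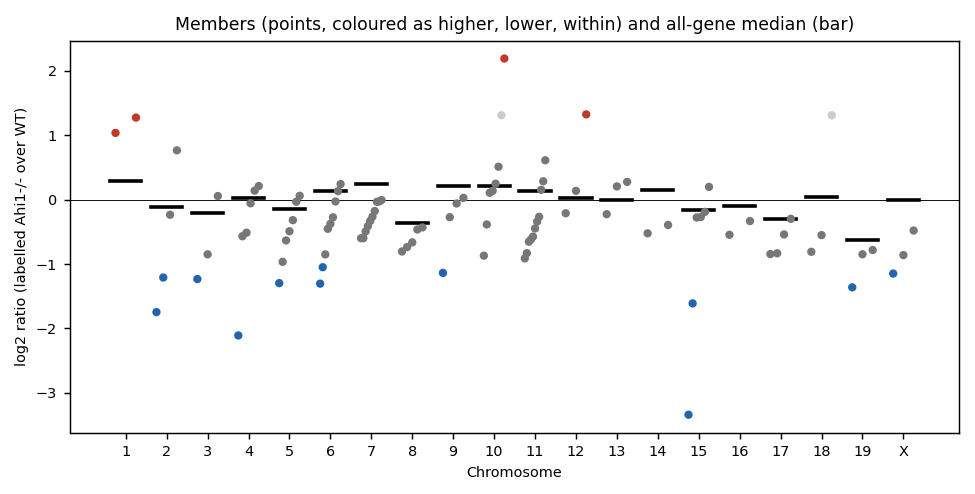
Points are the 98 measured members by chromosome (horizontal axis) and log2 ratio (vertical axis, library labelled Ahi1-/- over WT), blue when called lower, red when called higher and grey otherwise. Black bars give the median of all measured genes of the chromosome, lowest on 19 (-0.62) and highest on 1 (0.29).

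Counting error left most of the lower calls past 2-fold. The counting interval lay wholly past 2-fold for 10 of the 12 lower members (Dnmt3b and Tet3 were the others), or 10.4% of the 96 members with the minimum count against 7.11% of all genes. It did so for 2 of the 4 higher members, Prdm1 and Kdm5b, or 2.08% against 13.3%. Of the 102 members, 34 had a fractional count in at least 1 library, which can mark reads shared between genes or copies, and 6 called members were among them (Suv39h2, Cbx5, Ezh2, Hdac9, Kat5 and Kdm5b). Exons of 32 members overlap a gene on the opposite strand in GENCODE M21, among them 7 called members: Nsd2 (Nelfa), Suv39h2 (Dclre1c), Kat5 (Rnaseh2c), Ezh2 (Gm26625), Suv39h1 (Gm14820), Prdm16 (B230104I21Rik) and Hdac4 (Gm26720). Whether counting used strand is not stated, so reads of such pairs cannot be told apart.

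A second table of the authors, with FPKM values for 3872 of the 17260 genes, held 17 of the 102 members, 14 lower and 3 higher. It describes the same libraries and is no second measurement. How all its genes divide into lower and higher was not counted, so this split has no background beside it. By counts, 1249 of 12075 genes with the minimum count were called lower and 1934 higher. Every one of the 3578 genes above 0 in both of its columns was at least 2-fold apart (smallest absolute log2 FPKM ratio 1.00). The FPKM log2 ratios lay 0.11 below the scaled count ratios (median over the genes of that table with at least 50 counts in each library). By FPKM, Cbx7 was 6.84 and 0.62, Prdm1 0.79 and 3.34, Dnmt1 63.9 and 26.9 and Ezh2 37.0 and 13.9. Cbx2 (8.55 and 4.24 FPKM) and Prdm9 (2.39 and 1.17 FPKM) are in that table without being called from the counts, and Hdac4 is called from the counts and is not in it.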

How the data were processed

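Expected counts and TPM values for 17260 genes, and FPKM values for 3872 genes in a second table, were deposited by the authors, per the file headers. RSEM 1.2.12, Bowtie2 2.2.5, HISAT2 2.0.4 and build mm8 are named in the submitters' processing notes, without roles. Annotation, strand and filters are not stated there. Values of a few single genes are not reported here. All 6 value columns were used and 0 were left out. Columns headed CON and EXP were read as WT and Ahi1-/-.

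Expected counts were rounded and scaled by TMM (edgeR 4.0.16, R 4.3.3), which gave nearly equal effective sizes (log2 WT over Ahi1-/- -0.01). Ratios carry exact 95% Clopper-Pearson intervals on the share of both counts in 1 library. A measured gene has at least 10 counts summed, and a library at 0 enters at 3 counts. The calculation was tested on simulated data. Python 3.11.15, numpy 2.4.6, pandas 2.3.3 and scipy 1.17.1 were used. Every member was eligible to be named, with up to 4 called genes per partner list. Cell type markers come from fixed lists, of which epithelial, endothelial, leukocyte, neural and skeletal muscle are given in the closing section. Members and lists were chosen with earlier results of these data known, and the families pooled and the promoters shown were chosen after the members' values had been seen. A median was taken as moved by another setting when it left the order-statistic 95% interval of the median over its genes. Of 17260 identifiers, 17210 were found in RefSeq GRCm38.p6, which gave chromosomes and promoters.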

Additional observations from a re-analysis of the deposited data

How the results depend on the processing

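No paired analysis was possible because each genotype had 1 library. With DESeq2 1.42.0 size factors, total counts, upper-quartile scaling and TPM ratios, the members called higher numbered 3 to 4 and those called lower 11 to 14, and the median stayed between -0.50 and -0.33. Total counts lost the higher call of Hdac4 and added Cbx2 and Kdm2b as lower. Upper-quartile scaling lost the lower call of Tet3. Total counts moved the median of all genes to -0.13, and the members lay 0.37 below it. Each count scaling shifts every gene by the same amount. The difference is therefore -0.37 with all of them by construction and is no check of the scaling. Without chromosomes 8, 17 and 19 the members' median was -0.30 against 0.05 for all genes. The number called higher was 2 with chromosome medians subtracted (Hdac4 and Kdm5b lost) and 2 when the counting interval had to lie wholly past 2-fold. The median of the genes classed with the H3K36 writers was 0.0123 with DESeq2 size factors, 0.0526 with upper-quartile scaling, 0.0465 with TPM ratios and 0.0274 without chromosomes 8, 17 and 19. That of the PRDM family was -0.0766 with total counts, -0.0406 with chromosome medians subtracted and -0.0562 with at least 100 counts. No called member changed sign under the scalings, TPM ratios or chromosome subtraction. The scalings and the chromosome medians (-0.62 to 0.29) move a ratio by less than 2-fold. For them this was fixed in advance by the rule for a call. Depth limits Dnmt3l, Prdm6, Prdm8, Prdm12, Prdm14 and Kdm4d, which had under 50 counts in each library.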

Other observations

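Marker lists of other cell types moved in both directions between the libraries and hold values not set beside a member. Epithelial markers summed to 67.2 TPM in WT and 101 TPM in the library labelled Ahi1-/-, with 4 of 5 that had the minimum count higher and Krt5 and Cldn4 at 0 in WT. Endothelial markers were 38.3 and 51.2 TPM (1 higher, 1 lower, Tie1 at 0 in the library labelled Ahi1-/-) and leukocyte markers 36.02 and 52.1 TPM (1 higher, 1 lower, none at 0). Neural markers were 49.4 and 109 TPM (2 higher, 1 lower, Pax6 at 0 in WT and Dcx at 0 in the other library), and the 3 of 8 skeletal muscle markers found in the table summed to 2.59 and 48.1 TPM (1 higher, Myh3 at 0 in WT). Their part in the members' values was not tested. Among all genes with the minimum count, 16.0% were called higher and 10.3% lower.

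For 3 measured members the difference between the log2 TPM ratio and the log2 count ratio lay more than 0.2 from its median over all genes with at least 50 counts in each library, which was 0.05. The difference was 0.70 for Hdac9, 0.41 for Cbx5 and -0.18 for Dnmt3l, which had 14 and 35 counts. The calls of Hdac9 and Cbx5 hold on either scale.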
